A study of Mus musculus with 2 samples.

Results

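The 35 genes described here are cell cycle genes, taken by symbol from the 31253 genes of a single-cell RNA-seq data set of mouse splenic T cells. By role they are 11 replication genes, 13 mitosis genes, 4 broadly expressed proliferation genes, 4 D and E cyclins and 3 inhibitors of cyclin-dependent kinases (CDKs). All 35 were found. H2afz is listed in the files under its later symbol H2az1, with the same Ensembl identifier (ENSMUSG00000037894). The cells came from 2 groups of mice that all carried Foxp3YFP-Cre, which places Cre recombinase and a yellow fluorescent protein under control of Foxp3. One group was Foxp3YFP-Cre Kmt2dfl/fl, called fl/fl here, in which Cre acts on floxed alleles of the histone methyltransferase gene Kmt2d in cells that express Foxp3. The other was Foxp3YFP-Cre Kmt2d+/+, called +/+ here. Neither the age nor the sex of the mice is given in the labels, nor the exons that were floxed. CD4+FoxP3+ regulatory T cells (Treg) were sorted from spleen and the cells of 3 mice were pooled into 1 library per group, so there is no replicate and no test, and the values describe these 2 libraries.

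Dividing cells copy their DNA in S phase and separate it in mitosis. Replication depends on the MCM helicase (Mcm2 to Mcm7), the sliding clamp Pcna, and the enzymes that supply deoxynucleotides, thymidylate synthase (Tyms) and ribonucleotide reductase (Rrm1, Rrm2). Passage into and through mitosis depends on Cdk1 with its A and B cyclins, and on the proteins of chromosomes and spindle. D and E cyclins with their CDKs carry cells from G1 into S phase, and the CDK inhibitors hold them back. Treg cells are T cells that restrain immune responses. A part of them divides at any time in healthy mice, and Ikzf2, which encodes the transcription factor Helios, is expressed in most Treg cells that come from the thymus.

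After filtering there were 8441 single cells in the fl/fl and 7653 in the +/+ library. T cells were recognised by T cell receptor and CD3 transcripts, and split at 3 unique molecular identifiers (UMIs, which count RNA molecules) of Ikzf2. There were 3840 fl/fl and 3773 +/+ Treg (30104585 and 23996232 UMIs) and 2398 fl/fl and 2399 +/+ other T cells (13481721 and 14059841 UMIs). Although both samples were sorted for Treg, other T cells made up 38.4% of fl/fl and 38.9% of +/+ T cells. They are defined only by having under 3 Ikzf2 UMIs, which depends on depth, so Treg can be among them. B cells, at 1351 and 537 cells, were also present. Foxp3 had a level of 25.4 CPM (UMIs of the gene per 1000000 UMIs) in fl/fl and 35.4 CPM in +/+ Treg, against 5.49 CPM in fl/fl and 12.9 CPM in +/+ other T cells. The +/+ other T cells thus held more Foxp3 transcripts than the fl/fl ones, and the part of this in the values below was not tested. Other Treg markers were lower in other T cells but present. Ctla4 was at 328 CPM in fl/fl and 394 CPM in +/+ other T cells, against 867 and 908 CPM in Treg. Il2ra was at 98.9 and 127 CPM in other T cells, against 388 and 300 CPM in Treg. Kmt2d was at 68.7 CPM in fl/fl and 71.1 CPM in +/+ Treg (log2 ratio -0.05, -0.14 to 0.04), but tags near the 3' end can lie outside a deletion and check nothing about it. The median Treg held 6922.5 UMIs in fl/fl and 5601 in +/+, and the median other T cell 5146.5 and 5397. Erythroid transcripts (3 markers) summed to 20.03 CPM in fl/fl and 2.63 CPM in +/+ Treg, and to 195 and 3.77 CPM in other T cells, which was not tested either. The 4 B cell markers summed to 6.94 CPM in fl/fl and 15.6 CPM in +/+ Treg. The libraries shared 15 cell barcodes. Intervals in parentheses are 95% exact intervals that cover counting error only, not differences between mice or libraries.

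In Treg, mitosis genes were higher in the fl/fl library. Their summed level was 411 CPM in fl/fl Treg and 223 CPM in +/+ Treg, 1.84 times as high (log2 ratio 0.88, 0.84 to 0.93). A gene counts as measured here at 10 CPM in either library, and as higher or lower when the ratio of CPM was at least 1.5 with an interval excluding 1. By that rule of size, which is not a test, 13 of the 31 measured cell cycle genes were higher and 1 was lower in fl/fl Treg, with a median log2 ratio of 0.50. Among all 8053 measured genes 2.69% were higher and 9.8% were lower, with a median of -0.14. Of the mitosis genes, 9 of 12 measured ones were higher, and the intervals of all 12 lay above 0. Without cells of 10000 or more UMIs, Top2a was the only one of the 13 mitosis genes still measured, and it was higher by that rule. All others were under 10 CPM in both libraries and could not be called. The intervals of 5 of the 13 lay above 0, among them Birc5 (1.58), Ube2c (1.22) and Nusap1 (1.15), while Ccnb2 was at -0.11 and Cenpe at -0.07. With the median ratio of all genes as the scale in place of total UMIs, each Treg ratio was larger by 0.14 and that of the mitosis sum was 1.02.

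Top2a, the topoisomerase that untangles replicated chromosomes, was at 85.5 CPM in fl/fl and 41.9 CPM in +/+ Treg (log2 ratio 1.03, 0.92 to 1.13). Ube2c, the ubiquitin-conjugating enzyme of the anaphase-promoting complex, had 69.2 CPM in fl/fl and 33.3 CPM in +/+ Treg (1.06, 0.94 to 1.18). Both lay well apart between the libraries. Cdk1, the kinase that drives entry into mitosis, was measured at 25.7 CPM in fl/fl and 12.4 CPM in +/+ Treg (1.06). For its partner cyclin A2, Ccna2 gave 13.3 CPM in fl/fl and 7.25 CPM in +/+ Treg (0.88, 0.62 to 1.14). The B cyclins, which activate Cdk1 at mitosis, differed less. Ccnb2 was at 19.3 CPM in fl/fl and 14.5 CPM in +/+ Treg (0.42, 0.22 to 0.61), and Ccnb1, under the 10 CPM limit, at 8.90 and 6.08 CPM (0.55, 0.25 to 0.85). Genes of the spindle showed the same direction. Nusap1, a microtubule-binding spindle protein, had 30.2 CPM in fl/fl and 14.5 CPM in +/+ Treg (1.06), and Tpx2, which activates Aurora A on the spindle, 17.4 and 8.88 CPM (0.97). At the kinetochore, Cenpf was at 20.6 CPM in fl/fl and 10.1 CPM in +/+ Treg (1.03), and the motor protein Cenpe at 13.1 and 8.79 CPM (0.57). The chromosomal passenger complex, which guides chromosome attachment, is represented by Birc5 (survivin) and Cdca8 (borealin). Birc5 had 49.0 CPM in fl/fl and 29.0 CPM in +/+ Treg (0.75), and Cdca8 22.5 and 15.5 CPM (0.54). Mki67, the marker of proliferating cells, was at 36.5 CPM in fl/fl and 20.8 CPM in +/+ Treg (0.81). Ccnb2, Cenpe and Cdca8 were the 3 measured mitosis genes that stayed under a ratio of 1.5.

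**Figure D1:**
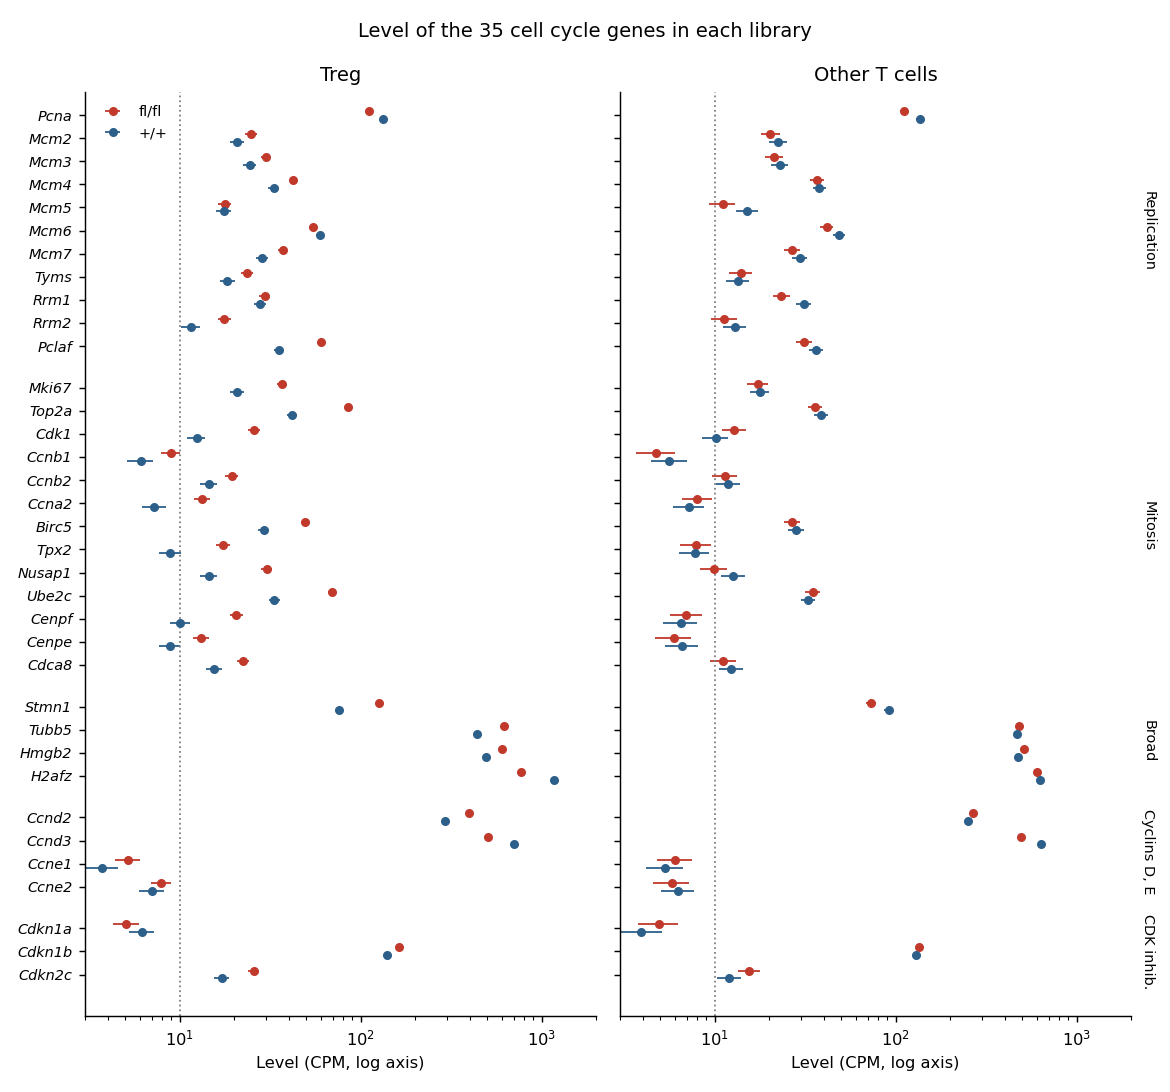
Level of each of the 35 genes in fl/fl (red) and +/+ (blue) Treg (left) and other T cells (right), in CPM on a log axis, with 95% exact Poisson intervals of the summed count; the dotted line is the 10 CPM limit. In Treg the red points of the mitosis genes lie to the right of the blue ones, and in other T cells most pairs overlap.

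Replication genes differed much less between the same Treg. Their sum was 449 CPM in fl/fl and 409 CPM in +/+ Treg (log2 ratio 0.13, 0.10 to 0.17), and 2 of 11 were higher and none lower, with a median ratio of 0.30. The 2 higher ones were Pclaf, a clamp-binding factor, at 60.6 CPM in fl/fl and 35.4 CPM in +/+ Treg (0.78, 0.66 to 0.90), and Rrm2, the regulated subunit of ribonucleotide reductase, at 17.6 and 11.5 CPM (0.61, 0.40 to 0.83). Rrm1, the large subunit, did not differ in that way, at 29.4 CPM in fl/fl and 27.8 CPM in +/+ Treg (0.08, -0.07 to 0.23). Tyms had 23.5 CPM in fl/fl and 18.3 CPM in +/+ Treg (0.36). The 6 helicase subunits ranged in log2 ratio from -0.12 for Mcm6 to 0.38 for Mcm7. Mcm6 was at 54.4 CPM in fl/fl and 59.3 CPM in +/+ Treg, and its sign turned to 0.01 under scaling by the median ratio. Mcm7 was at 37.0 and 28.5 CPM, Mcm4 at 42.3 and 33.2 CPM (0.35), Mcm3 at 30.0 and 24.3 CPM (0.30), Mcm2 at 24.8 and 20.7 CPM (0.26), and Mcm5 at 17.7 and 17.5 CPM (0.02). Pcna, with 111 CPM in fl/fl and 133 CPM in +/+ Treg, was the replication gene with the lowest ratio (-0.25, -0.32 to -0.18; -0.12 under scaling by the median). The number of replication UMIs per mitosis UMI was therefore 1.09 (1.07 to 1.12) in fl/fl and 1.84 (1.78 to 1.90) in +/+ Treg.

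**Figure D2:**
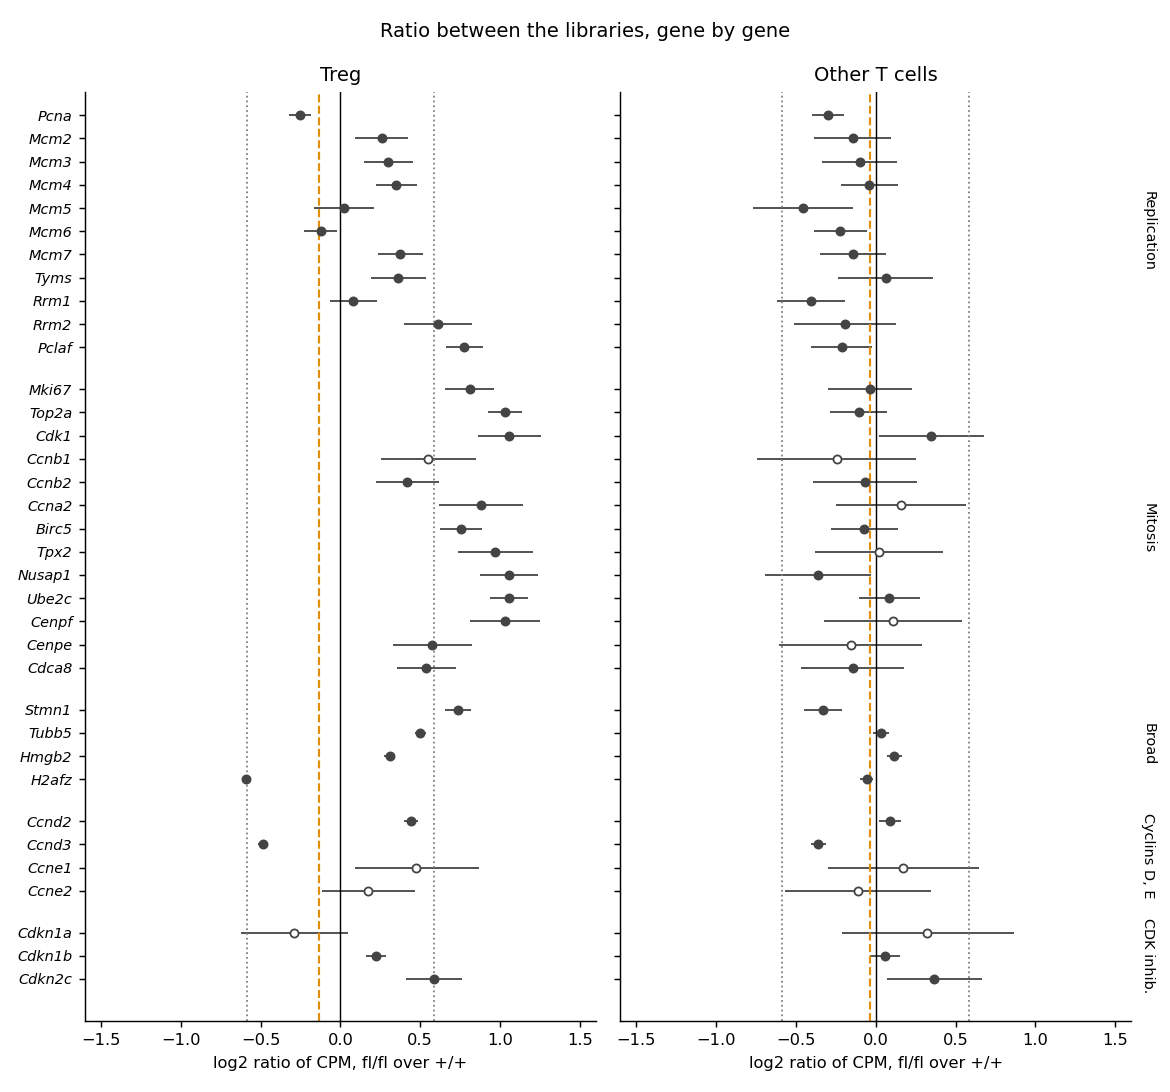
Log2 ratio of CPM, fl/fl over +/+, of each gene in Treg (left) and other T cells (right), with 95% exact conditional binomial intervals; filled points are measured genes, open points lie under 10 CPM in both libraries, dotted lines mark a ratio of 1.5, and the dashed orange line is the median of all measured genes (-0.14 in Treg, -0.04 in other T cells). The mitosis genes of Treg lie to the right, from 0.42 to 1.06, and the replication genes spread from -0.25 to 0.78.

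The promoters of some of these genes are shown to let their letters be seen. RefSeq windows from 250 bases before to 50 bases after the start of transcription (GRCm38.p6) were matched for 29 of the 35 genes, and not for Ccna2, Tpx2, Stmn1, Mcm4, Ccne2 and Ccnd2. They were searched on both strands for E2F sites (TTTCGCGC, TTTGGCGC, TTTCCCGC or TTTGCCGC), for the cell cycle genes homology region (CHR; TTTGAA or TTCGAA) and for CCAAT, the box bound by NF-Y. The windows follow for 3 mitosis genes with ratios above 1 in Treg and for Mcm6 and Mcm5, replication genes with ratios near 0, with matches in capitals, 5′ to 3′ along the gene.
Top2a: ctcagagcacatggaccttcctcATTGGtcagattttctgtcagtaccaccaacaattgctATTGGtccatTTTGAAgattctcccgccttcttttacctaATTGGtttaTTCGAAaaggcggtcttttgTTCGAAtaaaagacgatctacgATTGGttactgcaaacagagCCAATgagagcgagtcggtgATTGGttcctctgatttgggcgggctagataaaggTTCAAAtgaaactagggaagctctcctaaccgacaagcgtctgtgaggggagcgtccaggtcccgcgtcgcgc
Ube2c: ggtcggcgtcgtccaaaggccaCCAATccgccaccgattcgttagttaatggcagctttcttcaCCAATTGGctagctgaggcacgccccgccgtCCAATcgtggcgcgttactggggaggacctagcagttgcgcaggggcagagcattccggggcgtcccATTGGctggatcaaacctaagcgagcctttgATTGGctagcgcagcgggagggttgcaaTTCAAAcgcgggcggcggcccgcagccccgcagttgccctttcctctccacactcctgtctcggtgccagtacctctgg
Cdk1: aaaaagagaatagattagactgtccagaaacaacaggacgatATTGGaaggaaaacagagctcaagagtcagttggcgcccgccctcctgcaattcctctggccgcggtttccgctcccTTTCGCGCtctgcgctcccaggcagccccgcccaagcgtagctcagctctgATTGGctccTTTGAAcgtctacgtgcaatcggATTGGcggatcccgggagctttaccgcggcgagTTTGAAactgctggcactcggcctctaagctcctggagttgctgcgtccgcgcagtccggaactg
Mcm6: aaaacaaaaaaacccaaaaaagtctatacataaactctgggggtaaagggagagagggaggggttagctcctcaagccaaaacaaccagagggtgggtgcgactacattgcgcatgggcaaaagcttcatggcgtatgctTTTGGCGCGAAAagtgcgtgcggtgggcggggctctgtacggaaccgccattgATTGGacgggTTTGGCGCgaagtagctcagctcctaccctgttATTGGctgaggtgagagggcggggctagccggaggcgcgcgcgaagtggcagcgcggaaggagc
Mcm5: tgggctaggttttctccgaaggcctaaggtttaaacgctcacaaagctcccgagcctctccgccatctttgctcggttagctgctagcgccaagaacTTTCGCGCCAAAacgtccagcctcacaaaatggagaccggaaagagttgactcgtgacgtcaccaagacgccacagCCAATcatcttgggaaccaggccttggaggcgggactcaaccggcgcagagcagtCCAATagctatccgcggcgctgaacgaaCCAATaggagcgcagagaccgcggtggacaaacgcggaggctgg
They lie at chr11:99024140-99024439 (minus strand) for Top2a, chr2:164769679-164769978 (plus strand) for Ube2c, chr10:69352863-69353162 (minus strand) for Cdk1, chr1:128359656-128359955 (minus strand) for Mcm6 and chr8:75109259-75109558 (plus strand) for Mcm5. The Top2a window held 4 CHR and 6 CCAAT matches, that of Ube2c 1 and 6, and that of Cdk1 2 and 3 with 1 E2F match. The Mcm6 window held 3 E2F and 2 CCAAT matches and that of Mcm5 2 and 3, with overlapping E2F matches on opposite strands in both. Among the mitosis genes, 7 of 11 windows held both CHR and CCAAT (63.6%), against 2 of 11 windows of 10 replication genes (18.2%) and 7.52% of all 32851 windows. E2F matches were in 1 of 11 windows of mitosis genes (9.09%), 5 of 11 windows of replication genes (45.5%) and 2.26% of all windows. CCAAT alone was in 9 of 11 and 10 of 11 windows of the mitosis and replication genes and in 37.4% of all. Matches of different motifs shared 1 base in Cdca8 and in 1 of the 2 windows of Mcm7. Nusap1 and Birc5, both higher in fl/fl Treg, held none of the motifs in their windows. Rrm1, also with a ratio near 0, held neither E2F nor CHR matches, and Pclaf, higher in fl/fl Treg, held 1 E2F match. A match is a string of letters and not a shown binding site.

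In other T cells the summed levels did not separate the libraries in this way. The mitosis sum was 193 CPM in fl/fl and 198 CPM in +/+ other T cells (log2 ratio -0.03, -0.11 to 0.04; 0.00379 under scaling by the median), and the replication sum 348 and 405 CPM (-0.22, -0.28 to -0.17). None of the 27 measured cell cycle genes passed a ratio of 1.5 either way (0 higher, 0 lower; median -0.10), where 1.53% of all 7837 measured genes were higher and 1.49% lower (median -0.04). Mki67 was at 17.3 CPM in fl/fl and 17.7 CPM in +/+ other T cells (-0.04, -0.30 to 0.23), and Top2a at 36.0 and 38.8 CPM (-0.11, -0.29 to 0.07). Their intervals take in 0 but not the Treg ratios of the same genes. Cdk1 had 12.8 CPM in fl/fl and 10.1 CPM in +/+ other T cells (0.35, 0.02 to 0.68), and Ube2c 34.7 and 32.7 CPM (0.09). The intervals of 9 genes lay under 0, among them Mcm5 (11.1 CPM in fl/fl and 15.1 CPM in +/+, -0.45), Rrm1 (23.4 and 30.9 CPM, -0.41) and Pcna (111 and 136 CPM, -0.30), and those of 4 lay above 0. With only T cells that held no Ikzf2 UMI (1704 fl/fl and 1607 +/+ cells), a choice made after the data were seen, the mitosis sum was 144 CPM in fl/fl and 180 CPM in +/+ (-0.32, -0.43 to -0.22). There Pclaf was at 20.1 CPM in fl/fl and 35.4 CPM in +/+ (-0.82), and Birc5 at 17.0 and 27.5 CPM (-0.70). A few cells carried much of these sums. The 10 cells with the most mitosis UMIs held 49.2% of them in fl/fl and 52.3% in +/+ other T cells, against 17.0% and 32.0% in Treg. The intervals, which treat UMIs as independent, are thus too narrow for the sums and for single mitosis genes.

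By UMIs per cell, a larger mitosis ratio in Treg than in other T cells was seen only among cells of 10000 or more UMIs. That range held 105 of the 132 fl/fl and 46 of the 59 +/+ Treg with 3 or more mitosis UMIs after thinning. Depth and mitosis level therefore cannot be told apart here. In Treg the mitosis ratio was positive at every depth. It was 0.67 in cells of 2500 to under 5000 UMIs (63.7 CPM in fl/fl, 40.0 CPM in +/+), 0.36 in cells of 5000 to under 7500 (56.8 and 44.4 CPM), 0.79 in cells of 7500 to under 10000 (110 and 63.5 CPM) and 0.39 in cells of 10000 or more (1136 and 869 CPM). Cells of 10000 or more UMIs numbered 651 in fl/fl and 370 in +/+ Treg. In other T cells the ratio was also positive in the 3 lower ranges, at 0.70, 1.05 and 1.249, and was -0.23 (-0.32 to -0.14) only among the 101 fl/fl and 111 +/+ cells of 10000 or more UMIs. Without those deep cells the mitosis ratio was 0.678 (0.56 to 0.80) in Treg and 0.999 (0.85 to 1.15) in other T cells, so below 10000 UMIs the ratio was not larger in Treg. Replication went the other way in those shallower Treg, with ratios of -0.27, -0.23 and -0.13, and -0.195 over all cells under 10000 UMIs, where it was 0.03 among the deep ones. Under that limit Top2a was at 28.1 CPM in fl/fl and 15.9 CPM in +/+ Treg (0.82), while Mki67 was at 7.90 and 7.40 CPM (0.09, -0.24 to 0.43).

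**Figure D3:**
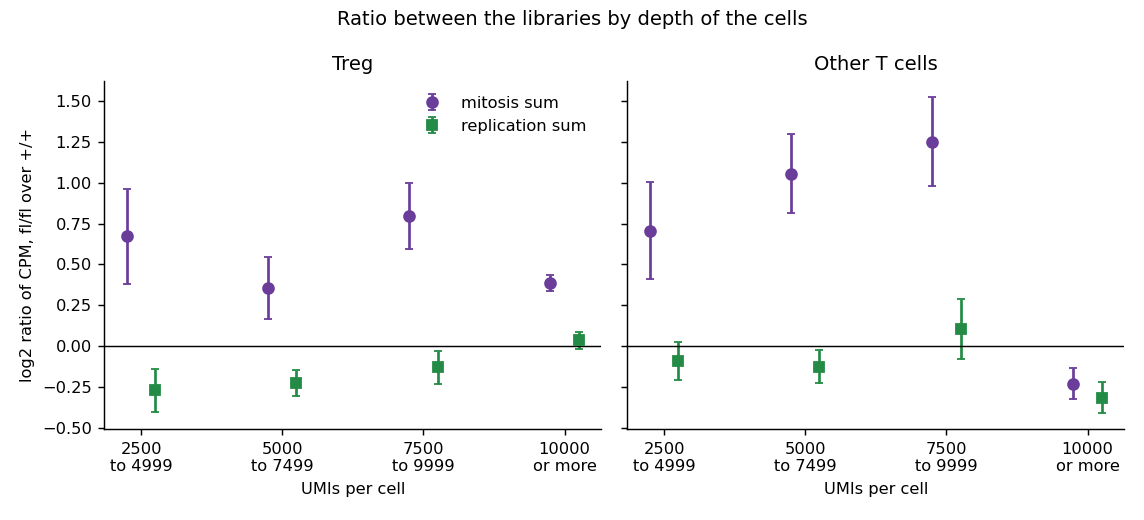
Log2 ratio of the mitosis sum (purple circles) and the replication sum (green squares), fl/fl over +/+, in Treg (left) and other T cells (right) by UMIs per cell, with 95% exact conditional binomial intervals. Mitosis lies above 0 in all 4 ranges of Treg and in the 3 lower ranges of other T cells, and replication lies near or under 0.

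The level of Ikzf2 gives another view of the same split. T cells were grouped by the Ikzf2 UMIs left after thinning to 2500 UMIs. The sums still used all UMIs of each cell, so depth was not evened out. The mitosis ratio was 0.29 (0.22 to 0.35) in cells with no Ikzf2 UMI and 0.06 (-0.06 to 0.18) with 1. It was 1.38 (1.21 to 1.55) with 2, 0.87 (0.77 to 0.97) with 3 to 4 and 1.06 (0.99 to 1.13) with 5 or more. The ratios of cells with 2 or more Ikzf2 UMIs were thus all above those of cells with fewer. The levels with 0, 1 and 2 Ikzf2 UMIs were 308, 265 and 289 CPM in fl/fl and 253, 254 and 111 CPM in +/+. With 3 to 4 and with 5 or more they were 391 and 391 CPM in fl/fl and 214 and 188 CPM in +/+. The step at 2 was thus a lower +/+ level and not a higher fl/fl one. With 2 Ikzf2 UMIs, only 13 fl/fl and 3 +/+ cells had 3 or more mitosis UMIs after thinning. Replication ratios over the same steps were -0.09, -0.02 (-0.11 to 0.08), 0.28 (0.16 to 0.39), 0.27 (0.19 to 0.35) and -0.0016 (-0.06 to 0.05). Those with 2 and with 3 to 4 Ikzf2 UMIs lay above those with fewer. That with 5 or more could not be told apart from that with 1, so replication showed no steady rise. In cells with 5 or more the share with 3 or more mitosis UMIs after thinning was 3.26% (64 of 1961) in fl/fl and 1.49% (31 of 2075) in +/+.

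Counted as cells, more fl/fl Treg carried mitosis transcripts. At 2500 UMIs per cell, 132 of 3824 fl/fl Treg (3.45%, 2.90 to 4.08) and 59 of 3733 +/+ Treg (1.58%, 1.21 to 2.03) had 3 or more mitosis UMIs, with 16 and 40 shallower cells left out. Unthinned, these shares were 7.45% in fl/fl and 3.21% in +/+. Without cells of 10000 or more UMIs they were 0.851% and 0.387%, a difference of 0.464 percentage points in place of 1.87. Within each of the 4 depth ranges the share was higher in fl/fl but the intervals overlapped, as among the deepest Treg with 16.1% (13.4 to 19.2) in fl/fl and 12.4% (9.25 to 16.2) in +/+. For replication genes the thinned shares were 6.38% in fl/fl and 5.65% in +/+ Treg, with intervals that overlap. Split by both sets, replication UMIs alone marked 156 fl/fl (4.08%, 3.47 to 4.76) and 179 +/+ Treg (4.80%, 4.13 to 5.53). Both sets together marked 88 fl/fl (2.30%, 1.85 to 2.83) and 32 +/+ Treg (0.857%, 0.587 to 1.21), and mitosis UMIs alone 44 (1.15%, 0.837 to 1.54) and 27 (0.723%, 0.477 to 1.05). The class with both sets was the one whose intervals stood apart between the libraries. Of the replication-positive Treg, 36.1% (30.0 to 42.4) in fl/fl and 15.2% (10.6 to 20.7) in +/+ were also mitosis-positive, whereas of the mitosis-positive ones 66.7% and 54.2% were also replication-positive, with overlapping intervals. In other T cells the mitosis share was 1.90% (45 of 2363) in fl/fl and 1.27% (30 of 2368) in +/+, again with overlapping intervals. The ratio of the mitosis sums there also took in 0 (-0.03, -0.11 to 0.04), so no direction is read over all other T cells. In each range under 10000 UMIs the share and the ratio were both higher in fl/fl, and in the deepest range both were lower. These classes are ranges of a count and not cell types, and 17 fl/fl and 6 +/+ Treg sat at exactly 3 mitosis UMIs, with 51 and 48 at 2. Of the thinned B cells, which divide too and are no background free of these genes, 4.42% of fl/fl and 1.51% of +/+ had 3 or more mitosis UMIs, at median depths of 4571 and 5041 UMIs. None of the mitosis-positive T cells was called a doublet.

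**Figure D4:**
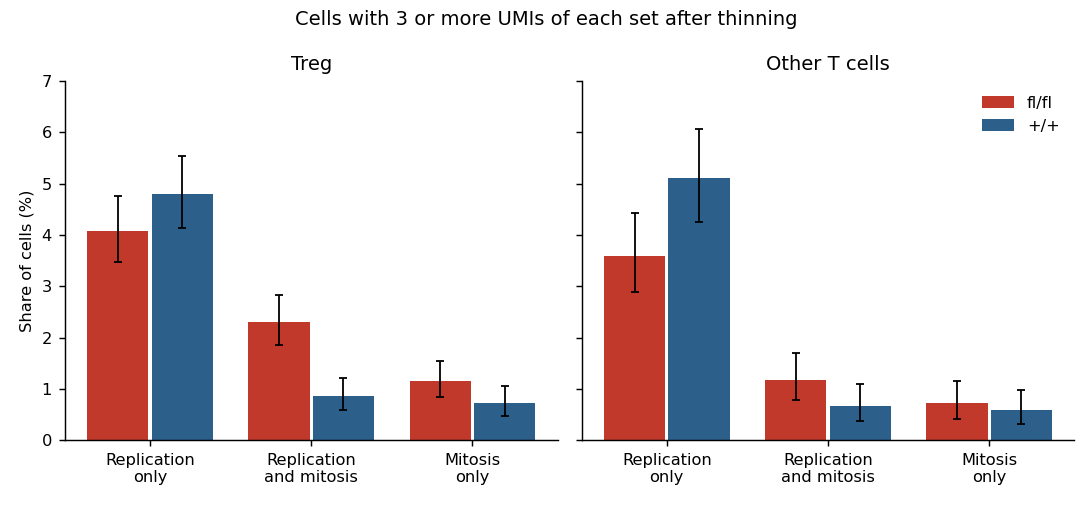
Share of Treg (left) and of other T cells (right) with 3 or more UMIs of replication genes only, of both sets, or of mitosis genes only after thinning to 2500 UMIs, in fl/fl (red) and +/+ (blue), with 95% Clopper-Pearson intervals. The bars with both sets in Treg stand at 2.30% and 0.857%, and the replication-only bars overlap.

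How far each gene was confined to the mitosis-positive cells differed by role. For a mitosis gene the cells were picked by the other 12, so that no gene chose its own cells. The percentage of UMIs inside also depends on the number of mitosis-positive Treg, 132 in fl/fl and 59 in +/+, and is not compared between libraries. The level inside over that outside went either way. It was 25.7 times in fl/fl and 27.7 times in +/+ Treg for Top2a, 79.0 and 112 times for Pclaf, and 53.5 and 45.9 times for Rrm2. Ccna2 was at 169 CPM inside and 0.288 CPM outside those cells in fl/fl Treg, with 98.0% of its UMIs inside, and 90.1% in +/+ Treg. Top2a was spread most widely of the mitosis genes, with 66.7% of its UMIs inside in fl/fl and 50.4% in +/+ Treg, and 30.6 and 21.5 CPM in all other Treg. Among the replication genes Pclaf and Rrm2, the 2 that were higher in fl/fl Treg, behaved like mitosis genes. They had 86.8% and 81.7% of their UMIs in mitosis-positive fl/fl Treg, and 82.8% and 66.4% in +/+. Tyms followed with 55.5% in fl/fl and 40.1% in +/+, while Pcna had 24.4% and 13.5%, and Mcm4 19.4% and 10.1%. Within the mitosis-positive Treg themselves, Pclaf was at 683 CPM in fl/fl and 712 CPM in +/+, Rrm2 at 187 and 186 CPM, and Tyms at 169 and 178 CPM. Pcna was at 353 CPM in fl/fl and 434 CPM in +/+ there, Mcm5 at 84.9 and 116 CPM, and Mcm4 at 106 and 81.0 CPM.

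The 4 broadly expressed genes moved apart from each other. Stmn1, which destabilises microtubules, was at 127 CPM in fl/fl and 75.9 CPM in +/+ Treg (0.74, 0.66 to 0.82), yet at 1233 and 1273 CPM in the mitosis-positive ones (-0.05, -0.14 to 0.05). Tubb5, a tubulin, had 620 CPM in fl/fl and 439 CPM in +/+ Treg (0.50), and Hmgb2, a chromatin protein of dividing cells, 606 and 490 CPM (0.31). H2afz, which encodes the histone variant H2A.Z, was the 1 gene of the 35 that was lower, at 772 CPM in fl/fl and 1163 CPM in +/+ Treg (-0.59, -0.62 to -0.57). Scaled by the median ratio it was at -0.46 and no longer past 1.5. The lower level held in every class, at 538 CPM in fl/fl and 995 CPM in +/+ Treg of neither set (-0.89), 1282 and 1808 CPM with replication only (-0.50), 3337 and 4248 CPM with both (-0.35), and 2313 and 3690 CPM with mitosis only (-0.67). In other T cells H2afz was at 604 CPM in fl/fl and 629 CPM in +/+ (-0.06, -0.10 to -0.01), Stmn1 at 72.6 and 91.3 CPM (-0.33, -0.45 to -0.21), Tubb5 at 479.5 and 469.2 CPM (0.03) and Hmgb2 at 513 and 474 CPM (0.12). For these 4 genes, how reads shared with related copies in the genome were assigned is not given in the sources used here.

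D cyclins ran in opposite directions. Ccnd2 was at 397 CPM in fl/fl and 292 CPM in +/+ Treg (0.44, 0.40 to 0.48), and Ccnd3 at 502 and 704 CPM (-0.49, -0.52 to -0.45; -0.35 under scaling by the median). Both were lower in mitosis-positive than in other Treg, Ccnd2 at 0.488 times in fl/fl and 0.367 times in +/+, and Ccnd3 at 0.486 and 0.419 times. In the mitosis-positive Treg, Ccnd2 was at 202 CPM in fl/fl and 110 CPM in +/+ (0.87, 0.57 to 1.18) and Ccnd3 at 254 and 302 CPM (-0.25). Other T cells had Ccnd2 at 266 CPM in fl/fl and 250 CPM in +/+ (0.09), and Ccnd3 at 492 and 631 CPM (-0.36, -0.41 to -0.31). E cyclins lay under 10 CPM in all 4 samples of cells. Ccne1 was at 5.15 CPM in fl/fl and 3.71 CPM in +/+ Treg (0.47, 0.09 to 0.87), and Ccne2 at 7.91 and 7.001 CPM (0.18, -0.12 to 0.47). Of the inhibitors, Cdkn2c (p18) had 25.7 CPM in fl/fl and 17.1 CPM in +/+ Treg (0.59, 0.41 to 0.76), just past 1.5, and was 6.03 times as high in mitosis-positive as in other Treg in fl/fl and 6.80 times in +/+. Cdkn1b (p27), which is high in resting T cells, was at 162 and 139 CPM (0.22, 0.16 to 0.29), and was lower in mitosis-positive Treg, at 0.690 times the other Treg in fl/fl and 0.566 times in +/+. Other T cells had Cdkn2c at 15.5 CPM in fl/fl and 12.0 CPM in +/+ (0.37, 0.07 to 0.67), and Cdkn1b at 135 and 129.8 CPM (0.06). Cdkn1a (p21) was at 5.05 CPM in fl/fl and 6.17 CPM in +/+ Treg (-0.29, -0.62 to 0.05).

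**Figure D5:**
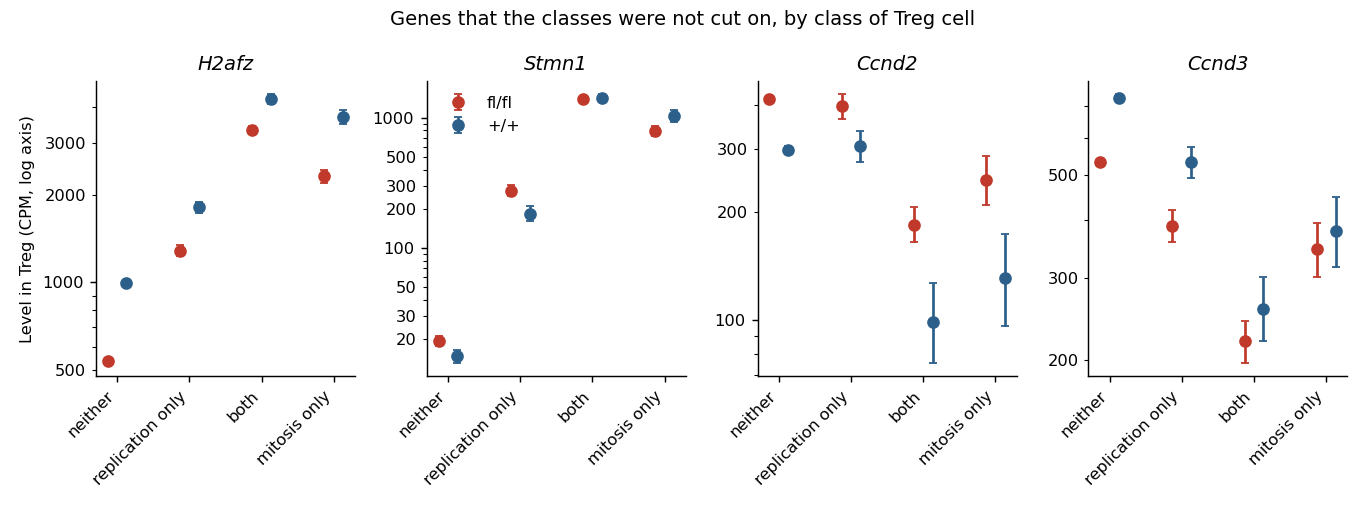
Level of H2afz, Stmn1, Ccnd2 and Ccnd3 (CPM, log axes that differ between panels and do not start at 0) in Treg grouped by UMIs of the replication and mitosis genes after thinning, in fl/fl (red) and +/+ (blue), with 95% exact Poisson intervals. H2afz is lower and Ccnd2 higher in fl/fl in each of the 4 classes, and Stmn1 overlaps in the class with both sets.

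Set against other T cells of the same library, the summed mitosis level of Treg was higher in fl/fl and about as high in +/+. The mitosis sum was 411 CPM in fl/fl Treg against 193 CPM in fl/fl other T cells (log2 ratio 1.09, 1.03 to 1.15), and 223 CPM in +/+ Treg against 198 CPM in +/+ other T cells (0.17, 0.11 to 0.24). No such excess was seen at matched depth. Over the 4 UMI ranges fl/fl Treg had 63.7, 56.8, 110 and 1136 CPM and fl/fl other T cells 61.5, 68.3, 207 and 1134 CPM. In the deepest range were 651 Treg but 101 other T cells. Most mitosis-positive fl/fl Treg lay in that range, so depth and mitosis level cannot be told apart. For replication the ratios were 0.37 (0.32 to 0.42) in fl/fl and 0.01 (-0.03 to 0.06) in +/+. In fl/fl, 18 of 31 measured members were higher in Treg and none lower, 12 of them mitosis genes, where 5.61% of all genes were higher and 5.31% lower. In +/+, 2 of 28 were higher, Cenpf (10.1 CPM in Treg, 6.47 CPM in other T cells) and H2afz (1163 and 629 CPM), and none lower, where 8.18% of all genes were higher and 2.23% lower. The ratio went the same way with an interval excluding 1 in both libraries for 13 members, all higher in Treg, among them Cenpf (1.56 in fl/fl, 0.64 in +/+), Mki67 (1.08 and 0.23), Tyms (0.75 and 0.45) and Cdkn2c (0.73 and 0.51). That number was 6 when scaled by the median ratio, and 3 in thinned cells with Treg taken by 1 Ikzf2 UMI. It sets no limit on the size of a ratio, and Hmgb2 counts at 0.05 in +/+, where the median of all genes was 0.07. The same count was not made over all genes, so it is not read as a trait of these genes.

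Other genes of the cell cycle came from lists that share no gene with the 35. Smaller shares of them were higher in fl/fl Treg, again larger for G2/M than for S phase. Among all measured genes in Treg 2.69% were higher and 9.8% lower. In Treg, 9 of 26 measured other G2/M genes were higher in fl/fl and none lower, with a median log2 ratio of 0.26. Hmmr, a spindle protein, was at 11.4 CPM in fl/fl and 5.46 CPM in +/+ Treg (1.06), Ect2, needed for cytokinesis, at 14.1 and 7.08 CPM (0.99), and the spindle motor Kif11 at 32.8 and 17.2 CPM (0.93). Jpt1, Tubb4b and Smc4 had the lowest ratios, from -0.23 to -0.13. Of the other S-phase genes, 2 of 23 were higher and none lower (median 0.17). These were Clspn, a checkpoint adaptor, at 10.8 CPM in fl/fl and 5.83 CPM in +/+ Treg (0.89), and the helicase Brip1 at 14.0 and 8.33 CPM (0.75). Nasp, a histone chaperone, was lowest at 119 and 142 CPM (-0.26). Among 15 measured regulators 1 was higher and 2 lower. The higher one was Cdc25a, a phosphatase that activates CDKs, at 11.6 CPM in fl/fl and 7.04 CPM in +/+ Treg (0.72). The lower ones were Rbl2 (p130), a pocket protein of resting cells, at 49.3 and 80.3 CPM (-0.70), and the inhibitor Cdkn2d (p19) at 33.0 and 51.5 CPM (-0.64). Myc, a growth-promoting transcription factor, had 97.6 CPM in fl/fl and 65.7 CPM in +/+ Treg (0.57). In other T cells 0 of 19 other G2/M genes, 0 of 19 other S-phase genes and 1 of 14 regulators were higher in fl/fl and none lower. Among all measured genes there 1.53% were higher and 1.49% lower. The 1 regulator was E2f2, at 16.5 CPM in fl/fl and 10.0 CPM in +/+ other T cells (0.72), and its Treg ratio was 0.58.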

How the data were processed

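The files hold UMI counts per gene and cell of 2 droplet libraries (10x Genomics 3' kit, version 3.1), which the authors deposited as raw count matrices; per the submitters' processing notes fastp, Cell Ranger 7.1.0, Seurat 4.1.1 and mm10 (GRCm38) were used. Here barcodes with fewer than 500 genes or over 10% mitochondrial UMIs were removed. Scrublet in scanpy 1.11.5 (6% expected doublets) called 2 fl/fl and 0 +/+ doublets at its automatic threshold, so an Otsu threshold on the simulated scores (scikit-image 0.26.0), chosen after that output was seen, was used and removed 193 and 137. The libraries held 63989234 (fl/fl) and 53680614 (+/+) UMIs in 8784 and 7947 barcodes.

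T cells had at least 3 UMIs of 6 T cell markers and at most 2 each of B, myeloid and NK markers, and Treg at least 3 UMIs of Ikzf2. B cells had at least 5 UMIs of Cd79a, Cd79b and Ms4a1. Counts were summed per library and population and divided by total UMIs (CPM). Ratios have exact conditional binomial intervals, levels exact Poisson ones and shares Clopper-Pearson ones (95%, counting error only), from scipy 1.17.1, numpy 2.4.6 and pandas 2.3.3 in Python 3.11.15. The fold of a gene counted as higher or lower was 1.5. Cells were thinned at random to 2500 UMIs (seed 1). With 1 library per group no test was made. The calling step was tested on simulated data.

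All 35 genes are named by role. From 3 lists of other cell cycle genes, those with the largest ratios were eligible to be named, up to 3 each way, at 10 CPM or more and with an interval excluding 1. The genes and lists were chosen with earlier results of these data known. Alternatives to thresholds, scaling, thinning, doublets and filters were fixed at the start, and those on deep cells, leading cells, T cells with no Ikzf2 UMI and the settings for Treg over other T cells were added after the data were seen.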

Additional observations from a re-analysis of the deposited data

Results flagged for a closer look

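Over all cells, several values went in opposite directions in Treg and in other T cells, and these differences were not tested, since each group has 1 library. The replication sum had a log2 ratio, fl/fl over +/+, of 0.133 in Treg and -0.221 in other T cells. For Pclaf the ratio was 0.777 in Treg and -0.214 in other T cells, for Nusap1 1.06 and -0.36, and for Stmn1 0.738 and -0.331. The intervals of each pair lie on opposite sides of 0 when scaled by total UMIs. Under scaling by the median those of other T cells took in 0 for Pclaf (-0.18, -0.37 to 0.01) and Nusap1 (-0.32, -0.66 to 0.01). Without cells of 10000 or more UMIs the ratios in other T cells were positive, at 2.74 for Pclaf (8.10 CPM in fl/fl and 1.21 CPM in +/+), 0.20 for Nusap1 (-0.53 to 0.94) and 0.44 for Stmn1 (0.24 to 0.64). In cells thinned to 2500 UMIs, with other T cells taken as those with no Ikzf2 UMI left, they were 0.69 for Pclaf, -0.23 for Nusap1 and 0.11 for Stmn1.

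B cells, which lie outside the comparisons of Treg and other T cells, also carried more cell cycle transcripts in the fl/fl library. Foxp3, which drives the Cre, was at 0.202 CPM in fl/fl and 0.246 CPM in +/+ B cells. The mitosis sum was 608 CPM in 1351 fl/fl and 189 CPM in 537 +/+ B cells (log2 ratio 1.69), and the replication sum 640 and 408 CPM (0.651). The 10 cells with the most mitosis UMIs held 31.7% of them in fl/fl and 79.2% in +/+ B cells.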

How the results depend on the processing

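No paired analysis was possible because each group has 1 library, and for the same reason no replicate could be left out. The log2 ratio of the mitosis sum in Treg stayed positive under every alternative run, at 0.815 with 5 Ikzf2 UMIs as the threshold, 0.835 with a mitochondrial limit of 5%, 0.824 as a mean over genes, 1.02 under scaling by the median, 0.678 without cells of 10000 or more UMIs and 1.35 without the 10 leading cells. In the thinned setting the split changed as well, so its values mix both changes. Treg there were T cells with at least 1 Ikzf2 UMI left after thinning (4095 fl/fl and 4061 +/+). Other T cells were those with none left (2092 and 2040). The replication sum in Treg changed sign, to -0.0283 in thinned cells and -0.195 without deep cells. It was 0.268 under scaling by the median, 0.251 as a mean over genes and 0.18 without leading cells. The number of genes called in Treg, 14, was 8 in thinned cells, 23 at a smaller ratio, 5 at a ratio of 2 and 3 without deep cells. The difference in the share of mitosis-positive Treg, 1.87 percentage points, was 4.24 unthinned and 0.464 without deep cells. In other T cells the mitosis ratio was -0.222 with 2 and 0.248 with 5 Ikzf2 UMIs as the threshold, 0.689 thinned, 0.999 without deep cells and -0.322 in cells with no Ikzf2 UMI. The replication ratio there was -0.0722 thinned, -0.0703 without deep cells and -0.364 with no Ikzf2 UMI. The count in other T cells, 0 in the report, was 4 thinned, 7 at the smaller ratio, 4 without deep cells and 6 with no Ikzf2 UMI. Those called in thinned cells and without deep cells were all higher in fl/fl, and those called with no Ikzf2 UMI all lower. Under these alternatives the share over all measured genes was not counted, in Treg or in other T cells. The counts are therefore not read as a trait of these genes. The 13 genes that went the same way in Treg over other T cells in both libraries were 8 with 2 Ikzf2 UMIs, 3 thinned, 6 under scaling by the median, 8 without deep cells and 23 without leading cells. Among single genes, 9 of 315 Treg values and 57 of 350 values of other T cells changed sign, in 6 and 26 genes. The causes were not tested. The depth behind the other T cells, 2607 fl/fl and 2782 +/+ mitosis UMIs, limits the values of single genes there.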

Other observations

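Among the other T cells, those with CD8 transcripts (335 fl/fl and 247 +/+ cells) had summed levels that went the other way from those of the rest, while the shares of mitosis-positive cells went against the sums. Their mitosis sum was 252 CPM in fl/fl and 166 CPM in +/+ (log2 ratio 0.60, 0.40 to 0.80) and their replication sum 438 and 323 CPM (0.44, 0.29 to 0.59). Rrm2 was at 20.1 CPM in fl/fl and 4.94 CPM in +/+ CD8 cells, on 49 and 9 UMIs, and Ccna2 at 14.8 and 3.84 CPM, on 36 and 7 UMIs. In the other T cells without CD8 transcripts the mitosis ratio was -0.17 (-0.25 to -0.08) and the replication ratio -0.35 (-0.41 to -0.29). Counted as cells thinned to 2500 UMIs, 7 of 334 fl/fl (2.10%, 0.847 to 4.27) and 7 of 246 +/+ CD8 cells (2.85%, 1.15 to 5.78) had 3 or more mitosis UMIs, against 1.87% of fl/fl and 1.08% of +/+ cells of the rest. Unthinned, the CD8 shares were 3.88% in fl/fl and 5.26% in +/+. Since shares and sums disagree, no direction is read. The 10 leading CD8 cells held 85.8% of the mitosis UMIs in fl/fl and 82.5% in +/+.

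The number of replication UMIs per mitosis UMI was 1.05 (1.02 to 1.09) in fl/fl and 2.16 (1.98 to 2.36) in +/+ B cells, and 1.80 (1.71 to 1.89) in fl/fl and 2.05 (1.96 to 2.15) in +/+ other T cells. In B cells H2afz was at 597 CPM in fl/fl and 353 CPM in +/+ (0.76, 0.67 to 0.84), the opposite direction to Treg.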
